A study of Mus musculus with 12 samples.

Results

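Genes of MHC class I antigen presentation, 10 in all, were followed in the medial prefrontal cortex (mPFC) of BTBR and C57 mice: 6 class I heavy chain genes of the H2 complex (H2-K1, H2-D1, H2-Q4, H2-Q7, H2-T22 and H2-T23), the light chain gene B2m, the peptide transporter genes Tap1 and Tap2, and Tapbp, which encodes tapasin. They were chosen by their role in the pathway and not by a cutoff on a measured value, and all 10 were found among the 17283 genes of the deposited table. The 12 libraries form 4 groups of 3: BTBR mice given astragaloside IV (ASIV, a plant saponin), BTBR mice given the DMSO solvent (BTBR vehicle), C57 mice given ASIV and C57 mice given the DMSO solvent (C57 vehicle). Injections were intraperitoneal and lasted 7 days. BTBR is labelled as an inbred strain and C57 as WT; the labels give no allele, dose, sex or age. Total RNA was sequenced, and values are FPKM, fragments scaled by gene length and library depth, as computed by the authors. Class I genes were not the stated target of the study, which asked about neurotransmission and ASIV in this autism model strain.

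As background, MHC class I molecules are a heavy chain and the light chain beta-2-microglobulin, which fold together around a short peptide in the endoplasmic reticulum. Peptides come from the proteasome, are pumped in by the TAP1-TAP2 transporter, and are loaded onto the heavy chain with the help of tapasin, calreticulin and the disulfide isomerase ERp57. In brain, class I RNA is found in endothelium and microglia and also in neurons, where class I molecules have been linked to synapse remodelling. The heavy chain genes lie in the H2 complex on chromosome 17 and are among the most variable genes between inbred strains, whereas B2m lies on chromosome 2.

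Promoters of the light chain gene, both classical heavy chain genes and H2-T23 are shown since these genes carry the opposite strain differences. They are the 250 bases before the start site in the RefSeq table (GRCm38.p6, the C57BL/6 sequence and not that of BTBR), at chr2:122147437-122147686 (plus strand), chr17:35262844-35263093 (plus), chr17:34000348-34000597 (minus) and chr17:36032702-36032951 (minus), each 5′ to 3′ along the gene. By the gene spans given below, which come from another annotation, the H2-D1 window lies inside its gene and the H2-T23 window overlaps its gene. Capitals mark matches, on either strand, to GGGATTCCC (the NF-kB site of enhancer A), TTTCNNTTT (the core of an interferon-stimulated response element), TGACGC (a CRE-like site) and CCAAT (the Y box).
B2m: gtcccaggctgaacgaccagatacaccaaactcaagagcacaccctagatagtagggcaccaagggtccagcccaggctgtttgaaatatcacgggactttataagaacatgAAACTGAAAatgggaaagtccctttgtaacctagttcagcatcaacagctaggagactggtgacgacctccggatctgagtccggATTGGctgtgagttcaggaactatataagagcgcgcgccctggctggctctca
H2-D1: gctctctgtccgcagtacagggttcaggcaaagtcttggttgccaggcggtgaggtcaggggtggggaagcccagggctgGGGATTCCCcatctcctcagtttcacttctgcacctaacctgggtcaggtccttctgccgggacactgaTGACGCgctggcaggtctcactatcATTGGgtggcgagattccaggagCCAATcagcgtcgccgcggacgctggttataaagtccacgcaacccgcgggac
H2-K1: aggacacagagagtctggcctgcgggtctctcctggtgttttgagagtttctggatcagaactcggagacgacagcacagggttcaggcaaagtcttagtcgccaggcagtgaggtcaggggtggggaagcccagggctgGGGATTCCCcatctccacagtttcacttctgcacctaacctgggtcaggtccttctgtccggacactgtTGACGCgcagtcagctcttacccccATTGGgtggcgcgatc
H2-T23: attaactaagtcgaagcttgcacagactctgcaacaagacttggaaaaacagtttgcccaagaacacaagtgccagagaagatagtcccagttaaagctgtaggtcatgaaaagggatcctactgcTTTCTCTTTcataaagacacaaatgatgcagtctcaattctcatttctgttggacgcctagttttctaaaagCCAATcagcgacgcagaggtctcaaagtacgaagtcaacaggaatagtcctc
GGGATTCCC occurred in 3 of the 9 promoters matched (H2-K1, H2-D1 and H2-Q7) and in 0.301% of all 32851 windows of that length in the table. TTTCNNTTT occurred in 3 of the 9 (B2m, H2-T22 and H2-T23) and in 9.37% of all windows, TGACGC in 2 of the 9 (H2-K1 and H2-D1) and in 6.12%, and CCAAT in 9 of the 9 and in 33.8%. The letters were chosen with these promoters in view, and other spellings of the sites give other counts. The H2-D1 and H2-K1 promoters hold tttcacttc, unmarked here, which differs from TTTCNNTTT only in its last letter. The H2-Q4 promoter holds gggatttccc, which differs from GGGATTCCC by a longer run of t. A promoter without a marked match may therefore still hold a near spelling of that site. H2-K1 has more than 1 start in the table, and the first listed was used. These are matches of letters in the reference sequence and show neither binding nor a cause of the differences.

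Libraries held 16166326 to 18660039 fragments, recovered from the steps of the FPKM values, and 1 fragment over 1 kb of exon equalled 0.0536 to 0.0619 FPKM. The BTBR vehicle libraries stood apart from the other 9: on the first principal component, with 54.0% of the variance, they lay at 36.9 to 47.8, against -4.13 to 2.25 in BTBR ASIV, -23.7 to -13.8 in C57 ASIV and -22.4 to -18.2 in C57 vehicle. The 13 mRNAs of the mitochondrial genome held 0.342 to 0.640% of fragments in BTBR vehicle, against 3.03 to 3.23% in BTBR ASIV, 2.96 to 4.72% in C57 ASIV and 4.48 to 4.83% in C57 vehicle. Every comparison with BTBR vehicle below rests on these 3 libraries, and the part that this shift plays in the class I values was not tested. The labels give no culture, litter or batch, so p-values measure only the spread between these libraries.

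Under vehicle, the light chain gene and its partners differed between the strains in opposite directions. B2m was lower in BTBR, whereas 7 of the 9 other genes were higher: the heavy chain genes H2-K1, H2-D1, H2-Q4, H2-Q7 and H2-T23, the transporter gene Tap2 and the tapasin gene Tapbp. H2-T22 and Tap1 did not pass the test. In the limma fit over all 13586 genes tested, with Benjamini-Hochberg adjustment and a threshold of 0.05, 43.1% of genes were called in this comparison, 22.3% higher and 20.8% lower. The median log2 difference was 0.62 over the 10 genes and 0.01 over all genes tested.

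B2m (ENSMUSG00000060802, chromosome 2, 122147686 to 122153083 on the plus strand, mm10) encodes beta-2-microglobulin, without which class I heavy chains do not reach the cell surface in a stable form. It had 29.0, 21.8 and 21.9 FPKM in BTBR vehicle, against 79.6, 85.0 and 84.5 FPKM in C57 vehicle. All 3 BTBR libraries lay far below all 3 C57 libraries. The log2 difference of FPKM + 1 was -1.75 ± 0.16 (SE, adjusted p = 1.19e-05), a ratio of 0.298. The values rest on 304 to 452 fragments per library in BTBR vehicle and 1182 to 1278 in C57 vehicle. B2m stayed called in each of the 23 alternative settings tried, with log2 differences of -1.88 to -1.68.

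Of the classical heavy chains, which present peptides to CD8 T cells, H2-D1 (ENSMUSG00000073411, chromosome 17, 35262730 to 35267499, plus strand) had 36.1, 35.0 and 36.3 FPKM in BTBR vehicle, against 18.4, 21.98 and 23.4 FPKM in C57 vehicle. The BTBR libraries were all above the C57 libraries and nearly equal to each other. The log2 difference was 0.73 ± 0.15 (adjusted p = 0.00166). H2-K1 (ENSMUSG00000061232, chromosome 17, 33996017 to 34000347, minus strand) had 26.2, 20.7 and 22.7 FPKM in BTBR vehicle and 11.2, 15.2 and 18.2 FPKM in C57 vehicle, a log2 difference of 0.63 ± 0.17 (adjusted p = 0.0115). Its groups did not overlap either, but the lowest C57 library carried part of the difference: without C57 vehicle replicate 1 the log2 difference was 0.45 and the adjusted p 0.0557.

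The non-classical heavy chains split. H2-T23 (ENSMUSG00000067212, chromosome 17, 36029773 to 36032855, minus strand) encodes Qa-1, which presents leader peptides of other class I chains to NK cell receptors. It had 15.4, 12.1 and 16.1 FPKM in BTBR vehicle, against 7.03, 6.42 and 7.28 FPKM in C57 vehicle, a log2 difference of 0.96 ± 0.15 (adjusted p = 3.12e-04). H2-Q4 (ENSMUSG00000035929, chromosome 17, 35379617 to 35385290, plus strand), of the Qa region, had 6.02, 4.15 and 4.22 FPKM in BTBR vehicle and 1.47, 1.94 and 2.46 FPKM in C57 vehicle, a log2 difference of 0.97 ± 0.16 (adjusted p = 4.66e-04). In both genes every BTBR library was above every C57 library.

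H2-Q7 (ENSMUSG00000060550, chromosome 17, 35439155 to 35443773, plus strand) encodes a Qa-2 chain and had the lowest mean level of the 6 heavy chains in each group. It had 1.33, 1.69 and 0.899 FPKM in BTBR vehicle, which is 62 to 123 fragments, against 0.126, 0.499 and 0.404 FPKM in C57 vehicle, which is 10 to 35 fragments. The log2 difference was 0.78 ± 0.22 (adjusted p = 0.0144), and it was 0.66 with an adjusted p of 0.0618 without C57 vehicle replicate 1. H2-Q7 passed the filter of 1 FPKM in 3 libraries with only 3 libraries, all from BTBR mice, so its place among the tested genes is not independent of its direction; with no filter it was called as well. On the log2(FPKM + 0.1) scale its difference was 1.74.

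H2-T22 (ENSMUSG00000056116, chromosome 17, 36037128 to 36042747, minus strand) encodes a chain that gamma-delta T cells recognise and that needs no peptide. It had 7.11, 6.60 and 4.89 FPKM in BTBR vehicle, against 5.27, 6.09 and 6.14 FPKM in C57 vehicle. The ranges overlapped, and the log2 difference was 0.06 ± 0.14 (adjusted p = 0.732).

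In the loading machinery, Tap2 (ENSMUSG00000024339, chromosome 17, 34203527 to 34216321, plus strand) had 3.27, 3.39 and 3.599 FPKM in BTBR vehicle, against 1.502, 2.24 and 1.95 FPKM in C57 vehicle, a log2 difference of 0.62 ± 0.11 (adjusted p = 6.60e-04). Tapbp (ENSMUSG00000024308, chromosome 17, 33915899 to 33929292, plus strand), whose product bridges the transporter and the heavy chain, had 15.3, 14.3 and 18.0 FPKM in BTBR vehicle and 8.19, 12.3 and 11.5 FPKM in C57 vehicle, a log2 difference of 0.54 ± 0.13 (adjusted p = 0.00520). For both genes the groups were apart. Tap1 (ENSMUSG00000037321, chromosome 17, 34187553 to 34197225, plus strand), the other subunit of the transporter, had 1.23, 1.02 and 1.34 FPKM in BTBR vehicle, against 0.861, 0.933 and 1.22 FPKM in C57 vehicle. Its groups overlapped, with a log2 difference of 0.13 ± 0.14 (adjusted p = 0.455). In all, the libraries of the 2 groups did not overlap for 8 of the 10 genes, and this was so for 53.3% of all genes tested.

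**Figure D1:**
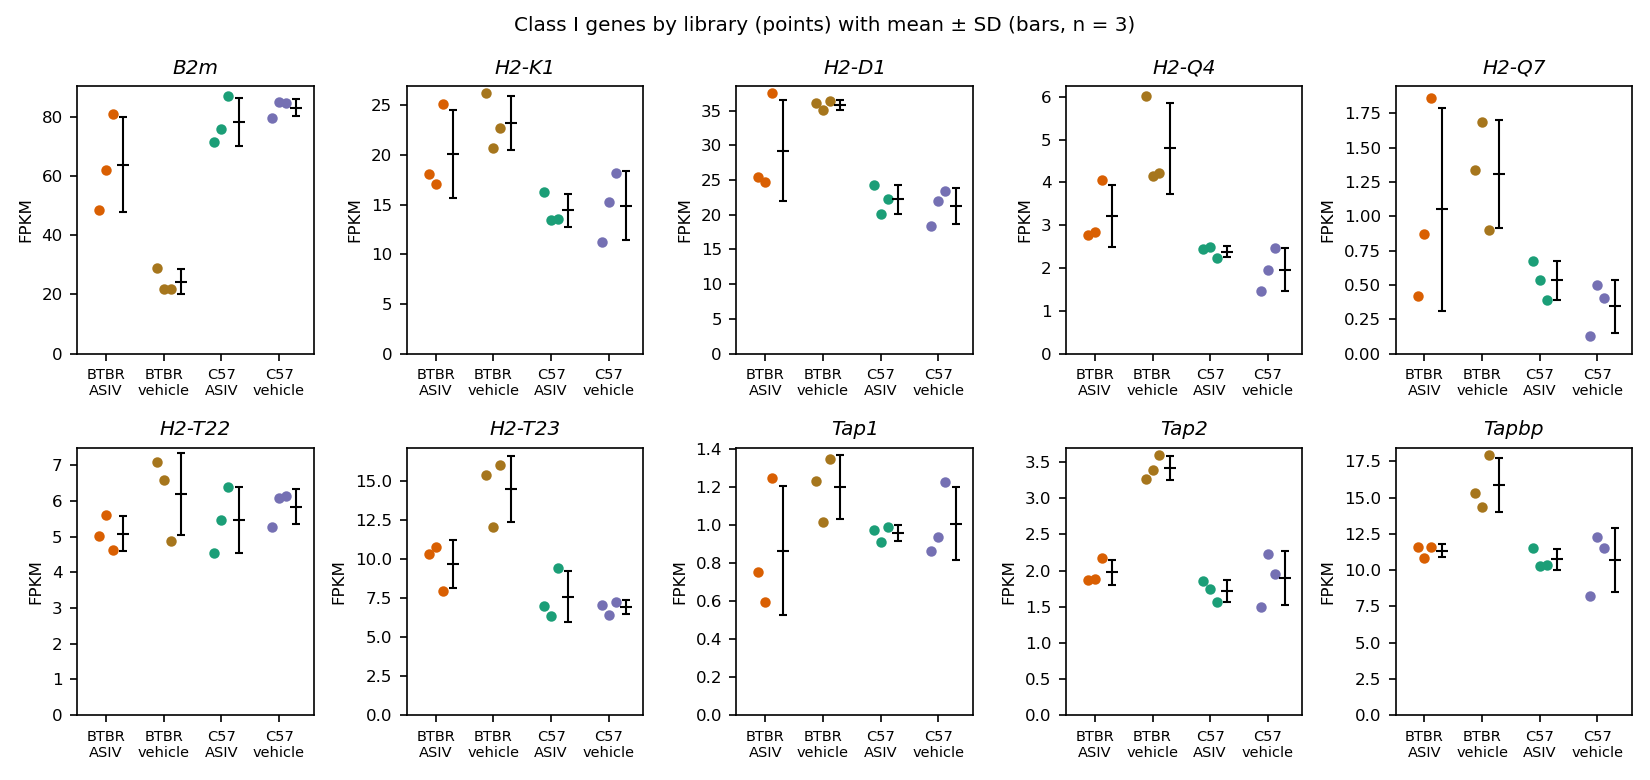
FPKM of each of the 10 class I genes (vertical axes, from 0) in each library (points) of the 4 groups, with the mean and SD of 3 libraries as black bars. B2m is lowest in BTBR vehicle (21.8 to 29.0 FPKM), the group in which each of the other genes has its highest mean. H2-T22 and Tap1 did not pass the test between the strains under vehicle.

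The order of the genes by level, which FPKM allows since it is per length, changed with these differences. In C57 vehicle B2m led with a mean of 83.1 ± 2.97 FPKM, followed by H2-D1 (21.3 ± 2.54), H2-K1 (14.9 ± 3.47) and Tapbp (10.7 ± 2.19; SD, n = 3 each). H2-D1 and H2-K1 were apart by a narrow margin there, and H2-K1 and Tapbp overlapped. In BTBR vehicle H2-D1 led with 35.8 ± 0.695 FPKM, above B2m (24.2 ± 4.17) and H2-K1 (23.2 ± 2.76) in each library, and the ranges of B2m and H2-K1 overlapped. The summed FPKM of the 6 heavy chain genes was 80.3 to 92.1 in BTBR vehicle and 43.6 to 57.8 in C57 vehicle. Divided by B2m, this sum was 3.58 ± 0.37 in BTBR vehicle, 0.61 ± 0.07 in C57 vehicle, 1.09 ± 0.16 in BTBR ASIV and 0.68 ± 0.08 in C57 ASIV (SD, n = 3 each). The ratio describes unequal levels of RNA and was not tested.

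**Figure D2:**
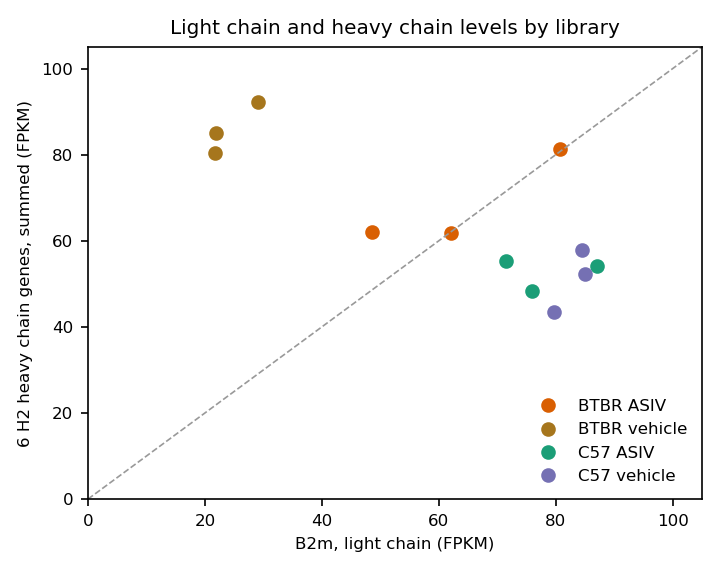
Summed FPKM of the 6 H2 heavy chain genes (vertical axis) against FPKM of B2m (horizontal axis), 1 point per library, with a dashed line at equal values. The 3 BTBR vehicle libraries lie far above the line, the 6 C57 libraries below it, and the BTBR ASIV libraries near it.

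Within BTBR mice, ASIV was set against vehicle. B2m rose, and 4 of the 9 other genes fell: H2-Q4, H2-T23, Tap2 and Tapbp. H2-K1, H2-D1, H2-Q7, H2-T22 and Tap1 did not pass. Over all genes tested 29.1% were called here, 13.7% higher and 15.4% lower, and the median log2 difference was -0.28 for the 10 genes and -0.01 for all. The BTBR vehicle libraries are shared with the strain comparison above, so the 2 comparisons are not independent.

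B2m had 48.6, 62.1 and 80.8 FPKM in BTBR ASIV, against 29.0, 21.8 and 21.9 FPKM in BTBR vehicle. The treated libraries were all above the vehicle libraries and spread widely among themselves. The log2 difference was 1.34 ± 0.16 (adjusted p = 2.14e-04, a ratio of 2.54), and it was called in each of the 23 alternatives (1.16 to 1.52).

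Tap2 had 1.87, 1.88 and 2.17 FPKM in BTBR ASIV, against 3.27, 3.39 and 3.599 FPKM in BTBR vehicle, a log2 difference of -0.57 ± 0.11 (adjusted p = 0.00200). It too was called in each of the 22 alternatives that gave it a value. Tapbp had 11.6, 10.9 and 11.6 FPKM in BTBR ASIV and 15.3, 14.3 and 18.0 FPKM in BTBR vehicle (-0.45 ± 0.13, adjusted p = 0.0222). H2-T23 had 10.3, 10.8 and 7.95 FPKM in BTBR ASIV and 15.4, 12.1 and 16.1 FPKM in BTBR vehicle (-0.54 ± 0.15, adjusted p = 0.0173). In these 3 genes every treated library was below every vehicle library; groups were apart for 39.1% of all genes tested. Leaving out 1 library ended the call of H2-T23 for BTBR vehicle replicate 1 or 3 or BTBR ASIV replicate 3 (adjusted p of up to 0.0723), and that of Tapbp for BTBR vehicle replicate 3 or BTBR ASIV replicate 2 (up to 0.0793).

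H2-Q4 had 2.78, 2.83 and 4.06 FPKM in BTBR ASIV, against 6.02, 4.15 and 4.22 FPKM in BTBR vehicle. The groups were apart by a small margin, and the log2 difference of -0.45 ± 0.16 (adjusted p = 0.0473) was called in only 6 of 22 alternatives, with adjusted p of up to 0.166. Rescaling the libraries without the genes of the mitochondrial genome moved the median of all genes in this comparison by 0.12 on the log2 scale, and 3 of the 10 genes were then called: B2m higher, and H2-T23 and Tap2 lower. Tapbp then had an adjusted p of 0.0939.

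The classical heavy chains were uneven among the treated BTBR libraries. H2-D1 had 25.4, 24.7 and 37.6 FPKM in BTBR ASIV, against 36.1, 35.0 and 36.3 FPKM in BTBR vehicle, and H2-K1 had 18.0, 17.1 and 25.2 FPKM in BTBR ASIV, against 26.2, 20.7 and 22.7 FPKM in BTBR vehicle. BTBR ASIV replicate 3 was within or above the vehicle range for both genes, and the other treated libraries were below it. The log2 differences were -0.31 ± 0.15 (adjusted p = 0.126) for H2-D1 and -0.21 ± 0.17 (adjusted p = 0.386) for H2-K1. Without BTBR ASIV replicate 3 H2-D1 stood at -0.50 (adjusted p = 0.0103).

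H2-Q7 had 0.420, 0.868 and 1.86 FPKM in BTBR ASIV, against 1.33, 1.69 and 0.899 FPKM in BTBR vehicle (-0.22 ± 0.22, adjusted p = 0.501; -0.46 with a pseudocount of 0.1, adjusted p = 0.512), again with replicate 3 highest. Tap1 had 0.753, 0.595 and 1.24 FPKM in BTBR ASIV, against 1.23, 1.02 and 1.34 FPKM in BTBR vehicle (-0.25 ± 0.14, adjusted p = 0.185). H2-T22 had 5.02, 5.61 and 4.62 FPKM in BTBR ASIV, against 7.11, 6.60 and 4.89 FPKM in BTBR vehicle (-0.23 ± 0.14, adjusted p = 0.219). The groups overlapped for each of these genes. Without BTBR ASIV replicate 3 Tap1 was called lower (-0.39, adjusted p = 0.0462).

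In C57 mice, ASIV moved none of the 10 genes past the threshold, and 0% of all genes tested were called, by limma and also by voom on recovered fragments. An unadjusted p under 0.05 was found for 417 of the 13586 genes and for 0 of the 10. B2m had 71.5, 76.0 and 87.0 FPKM in C57 ASIV, against 79.6, 85.0 and 84.5 FPKM in C57 vehicle (log2 -0.09 ± 0.16). H2-D1 had 24.3, 20.1 and 22.2 FPKM in C57 ASIV, against 18.4, 21.98 and 23.4 FPKM in C57 vehicle (0.06 ± 0.15). The largest log2 differences of FPKM + 1 were those of H2-Q4 (0.21 ± 0.16) and H2-Q7 (0.20 ± 0.22), and every gene's groups overlapped. With a pseudocount of 0.1 that of H2-Q7 was 0.61 (adjusted p = 1.00), a size that depends on the pseudocount at this low level.

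The interaction of strain and ASIV tests whether the difference between ASIV and vehicle is itself different in BTBR and in C57. Of the 10 genes, 2 were called, B2m higher and Tap2 lower; of all genes tested 14.3% were, 6.91% higher and 7.36% lower. For B2m it was 1.43 ± 0.23 on the log2 scale (adjusted p = 0.00311), called in each of 22 alternatives. For Tap2 it was -0.49 ± 0.15 with an adjusted p of 0.0481, which lay above the threshold in 18 of 21 alternatives (up to 0.114). H2-T23 (-0.64 ± 0.21, adjusted p = 0.0595), H2-Q4 (-0.66 ± 0.22, adjusted p = 0.0675) and Tapbp (-0.47 ± 0.18, adjusted p = 0.108) did not pass, though H2-T23 did in 4 of 22 alternatives. The difference of the strain effect between treatments is the same contrast, so it has the same values.

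Under ASIV none of the 10 genes was called between the strains, in a comparison in which 2.53% of all genes were, 1.31% higher and 1.22% lower. H2-K1 (0.44 ± 0.17, unadjusted p = 0.0252, adjusted p = 0.193) and H2-D1 (0.36 ± 0.15, unadjusted p = 0.0293, adjusted p = 0.206) had an unadjusted p under 0.05. H2-K1 had 18.0, 17.1 and 25.2 FPKM in BTBR ASIV, against 16.3, 13.4 and 13.5 FPKM in C57 ASIV, and these groups were apart, as were those of H2-D1, H2-Q4 and Tap2. In all, 4 of the 10 genes had groups that did not overlap, where 26.2% of all genes did. B2m had 48.6, 62.1 and 80.8 FPKM in BTBR ASIV, against 71.5, 76.0 and 87.0 FPKM in C57 ASIV (-0.31 ± 0.16, adjusted p = 0.313), with overlapping ranges.

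**Figure D3:**
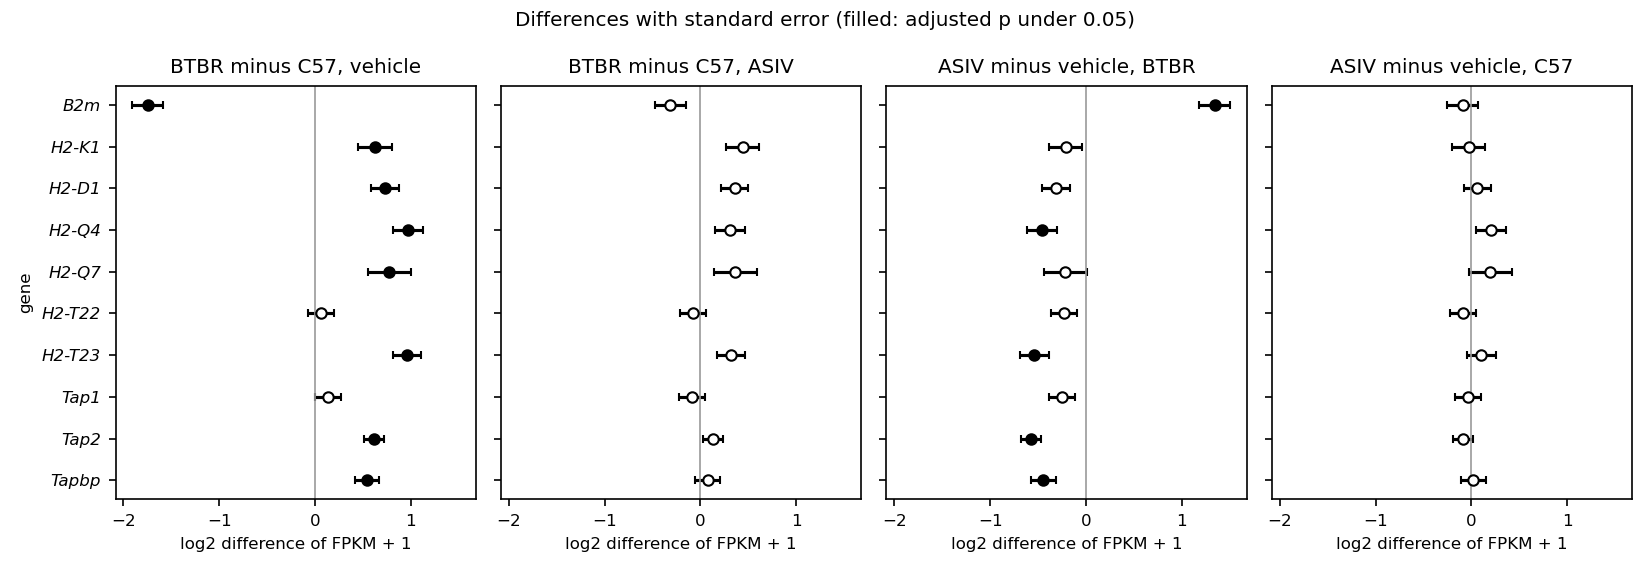
Log2 difference of FPKM + 1 (horizontal axes) for each gene in 4 comparisons, with the standard error of the limma fit as bars; filled points have an adjusted p under 0.05. B2m lies at -1.75 and the called heavy chain and loading genes at 0.54 to 0.97 for the strains under vehicle. For ASIV in BTBR the filled points are B2m at 1.34 and H2-Q4, H2-T23, Tap2 and Tapbp at -0.57 to -0.45; H2-K1, H2-D1 and H2-Q7 did not pass there.

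The FPKM of the heavy chains depends on how fragments of strain alleles and of near-identical copies were placed on the reference, which is that of C57BL/6. Sequence of the BTBR H2 alleles and of BTBR B2m was not used here. A strain difference in RNA level and one in alignment therefore cannot be told apart for genes of the H2 complex or for B2m. The part of alignment in the differences with ASIV was not tested. The shares that follow compare genes within the reference and do not measure differences between strain alleles. On either strand, 53.5% of the distinct stretches of 50 bases in H2-T22 transcripts also occur in transcripts of other genes. H2-T10 held 31.2% of the stretches, and A930015D03Rik, an overlapping gene on the opposite strand, held 26.5%. The share was 36.4% for H2-Q4, 26.5% for H2-Q7, 23.2% for Tapbp, 14.5% for H2-T23, 12.8% for H2-D1, 11.6% for Tap2, 9.63% for H2-K1, 3.33% for Tap1 and 0% for B2m. For Tapbp, Tap2 and Tap1 most of it lies in the overlapping genes Gm19412, Gm15821 and Psmb9. For H2-Q4 the largest part, 15.3%, lies in the overlapping gene Gm11131. These shares are therefore not a measure of similarity between class I copies alone. Values of H2-T22, H2-Q4, H2-Q7 and Tapbp above all are therefore uncertain to the extent that the authors' counting split or dropped such fragments. Exons on the opposite strand cover 29.4% of the exon bases of H2-T22 (A930015D03Rik), 24.9% of those of Tapbp (Gm19412), 19.1% of those of H2-Q4 (Gm11131) and 14.1% of those of Tap2 (Gm15821), and without the strand of counting reads of such partners cannot be told apart.

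Other genes of the pathway were counted from lists chosen by function, with earlier results of these data known. Of 5 tested genes of the immunoproteasome and its activator, which cut peptides for class I, 4 (80.0%, against 22.3% of all genes) were higher and 0 lower in BTBR vehicle against C57 vehicle, with a median log2 difference of 0.59. Psmb10, a catalytic subunit, had 48.1, 44.5 and 50.1 FPKM in BTBR vehicle, against 20.7, 21.4 and 25.9 FPKM in C57 vehicle (1.04 ± 0.11, adjusted p = 3.25e-05). Psmb8 (0.59 ± 0.15), Psme1 (0.45 ± 0.10) and Psme2 (0.65 ± 0.21) were also higher. Psmb8 was low, with means of 2.20 FPKM in BTBR vehicle and 1.10 FPKM in C57 vehicle. The list holds 6 genes, of which 5 passed the filter. With ASIV in BTBR, Psmb10 fell to 24.4, 28.9 and 22.9 FPKM (-0.88 ± 0.11, adjusted p = 2.84e-04) and Psmb8 by 0.45 on the log2 scale, 2 of the 5 genes (40.0%, against 15.4% of all genes), and 0 rose. The standard catalytic subunits went both ways under vehicle, with Psmb6 higher (0.74 ± 0.12) and Psmb7 (-0.93 ± 0.13) and Psmb5 (-0.51 ± 0.16) lower. With ASIV in BTBR, Psmb7 rose (0.84 ± 0.13) and Psmb6 fell (-0.62 ± 0.12).

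Of 11 further genes of peptide loading and trimming, 4 (36.4%, against 22.3% of all genes) were higher and 0 lower in BTBR vehicle than in C57 vehicle. Pdia3, which encodes ERp57, stood at 0.60 ± 0.14, the lectin chaperone gene Canx at 0.41 ± 0.12, Hspa5, the chaperone BiP, at 0.83 ± 0.16, and Uggt1, a folding sensor of glycoproteins, at 0.32 ± 0.10. Under ASIV in BTBR 4 (36.4%, against 15.4% of all genes) fell and 0 rose: Canx (-0.45 ± 0.12), Hspa5 (-0.57 ± 0.16), Pdia3 (-0.45 ± 0.14) and Bcap31 (-0.43 ± 0.13), a receptor for export from the endoplasmic reticulum. The median over the list was 0.01 for the strains under vehicle and -0.10 for ASIV in BTBR, against 0.01 and -0.01 over all genes, so the list as a whole showed little or no shift.

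Of 4 further heavy chain genes tested, H2-Q6 was higher (1.01 ± 0.37, adjusted p = 0.0491) and H2-T24 lower (-0.43 ± 0.14, adjusted p = 0.0288) in BTBR vehicle than in C57 vehicle. That is 25.0% each way, against 22.3% and 20.8% of all genes, and is no result about the list. H2-Q6 is close to H2-Q7 in sequence, with 13.9% of its 50-base stretches also in H2-Q7 transcripts. With ASIV in BTBR, H2-M3, which presents formylated peptides, was lower (-0.38 ± 0.13, adjusted p = 0.0432). H2-M3 had 1.25, 1.11 and 1.65 FPKM in BTBR ASIV, against 1.73, 2.61 and 1.85 FPKM in BTBR vehicle. These values rest on only 29 to 44 fragments per library in BTBR ASIV and 43 to 64 in BTBR vehicle. H2-M3 alone of the 4 was called there (25.0% lower, against 15.4% of all genes). Fcgrt, a class I-like chain that also pairs with beta-2-microglobulin and binds IgG, had 23.9, 19.6 and 21.98 FPKM in BTBR vehicle, against 9.31, 11.3 and 14.2 FPKM in C57 vehicle (0.87 ± 0.13, adjusted p = 3.10e-04). With ASIV in BTBR it fell to 12.5, 14.8 and 13.2 FPKM (-0.65 ± 0.13, adjusted p = 0.00357), below each BTBR vehicle library. Fcgrt is 1 of 2 tested class I-like genes outside the H2 families. That is 50% higher under vehicle and 50% lower with ASIV, against 22.3% and 15.4% of all genes. Hfe, the other, was not called (-0.17 ± 0.19 for the strains under vehicle and 0.23 ± 0.19 for ASIV in BTBR).

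Genes upstream of class I were called in both directions, at shares near or below those of all genes. Of 27 genes of interferon signalling and its targets, 3 were higher and 4 lower in BTBR vehicle than in C57 vehicle (25.9% called, against 43.1% of all genes), with a median of -0.08; Ifi27 was higher (0.81 ± 0.11), and Ifitm3 (-1.08 ± 0.18) and the interferon gamma receptor genes Ifngr1 (-0.57 ± 0.09) and Ifngr2 (-0.53 ± 0.10) were lower. With ASIV in BTBR 3 rose and 3 fell (22.2%, against 29.1% of all genes), with Ifngr1 at 0.58 ± 0.09 and Ifi27 at -0.71 ± 0.11. Of 14 regulators of class I transcription, 4 were higher and 2 lower under vehicle, 42.9% against 43.1% of all genes, and 3 rose and 2 fell with ASIV in BTBR, 35.7% against 29.1% of all genes. The CCAAT-binding subunit genes split, with Nfyb higher (0.74 ± 0.12) and Nfyc lower (-1.09 ± 0.10) in BTBR vehicle. Nlrc5, the class I transactivator, was below the filter at 0.109 to 0.228 FPKM in BTBR vehicle and 0.145 to 0.150 FPKM in C57 vehicle. Of 6 class II pathway genes 0 were called in each of the 5 comparisons, by limma and by voom. The shares of all genes called by limma were 43.1% for the strains under vehicle, 29.1% for ASIV in BTBR and 14.3% for the interaction. They were 2.53% for the strains under ASIV and 0% for ASIV in C57. An unadjusted p under 0.05 was found for 1 class II gene (ASIV in BTBR). The class II median was 0.01 for the strains under vehicle and -0.13 for ASIV in BTBR. H2-Aa, H2-Ab1, H2-DMb1 and H2-Eb1 had means of 0.695 to 1.69 FPKM in BTBR vehicle and 0.777 to 1.42 in C57 vehicle. At such levels log2(FPKM + 1) shrinks differences. Of 4 tested receptors and synaptic partners of class I, the complement gene C1qc alone was called, higher in BTBR vehicle (0.51 ± 0.14) and lower with ASIV (-0.48 ± 0.14). That is 25.0% in each comparison, against 43.1% and 29.1% of all genes.

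**Figure D4:**
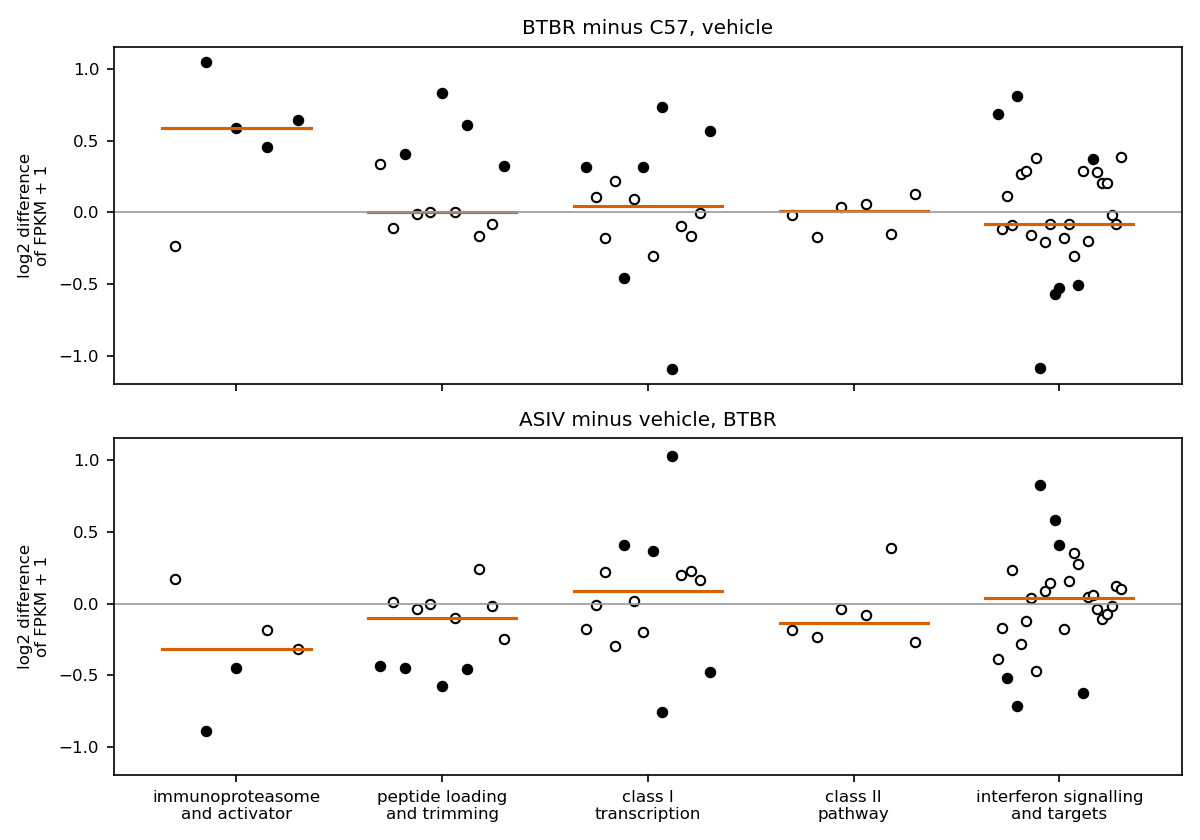
Log2 difference of FPKM + 1 (vertical axes) for the tested genes of 5 lists related to class I, 1 point per gene, for the strains under vehicle (top) and for ASIV in BTBR (bottom); filled points have an adjusted p under 0.05 and orange lines are list medians. The immunoproteasome list lies at a median of 0.59 (top) and -0.31 (bottom), and the other lists lie near 0.

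The 79 other genes tested within the H2 region (chromosome 17, 33915899 to 36042747) give the local background: 22 were higher and 15 lower in BTBR vehicle than in C57 vehicle, with a median of 0.06. These are 27.8% and 19.0% of them, near the 22.3% and 20.8% of all genes tested, and are no result about the region. Prrt1 (-1.65 ± 0.13), Agpat1 (-1.48 ± 0.12) and Atp6v1g2 (-1.78 ± 0.16) had the smallest p. Under ASIV 2 were higher in BTBR and 0 lower, which is 2.53% and equals the share of all genes called there: Ddah2 (0.62 ± 0.13) and Gpsm3 (0.78 ± 0.16); Notch4, next by p, did not pass (0.71 ± 0.18, adjusted p = 0.0642).

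In bulk tissue, fewer cells of a type and less RNA per cell cannot be told apart, and markers of the cells that carry class I were read beside these values. Of 14 microglial markers 3 were higher (21.4%) and 5 lower (35.7%) in BTBR vehicle than in C57 vehicle. Of all genes 22.3% were higher and 20.8% lower. P2ry12 (-1.88 ± 0.16), Cx3cr1 (-0.91 ± 0.15) and Itgam (-0.58 ± 0.12) were lower and Aif1 higher (0.78 ± 0.12). With ASIV in BTBR 2 rose and 3 fell (14.3% and 21.4%, against 13.7% and 15.4% of all genes). P2ry12 rose (1.65 ± 0.16), and Trem2 (-0.65 ± 0.09) and Aif1 (-0.76 ± 0.12) fell. The 14 markers summed to 271.1 to 335.8 FPKM in BTBR vehicle and 276.3 to 333.9 FPKM in C57 vehicle. Of 12 endothelial markers 2 were higher (16.7%) and 3 lower (25.0%) in BTBR vehicle than in C57 vehicle. Cldn5 was higher (0.66 ± 0.15), and Cdh5 (-0.81 ± 0.14) and Ly6c1 (-0.96 ± 0.22) were lower. With ASIV in BTBR 2 rose and 2 fell (16.7% each). Sums of the 12 were 169.1 to 221.3 FPKM in BTBR vehicle and 157.5 to 184.3 FPKM in C57 vehicle. The ranges of these sums overlapped for both cell types. Of 4 blood markers tested, the haemoglobin gene Hba-a1 was lower (-1.30 ± 0.45, adjusted p = 0.0392), with sums of 41.6 to 140.7 FPKM in BTBR vehicle and 87.5 to 170.2 FPKM in C57 vehicle. Of 3 tested markers of meninges and fibroblasts, Col1a2 was higher (0.92 ± 0.19) and Dcn lower (-0.53 ± 0.18) in BTBR vehicle than in C57 vehicle, and with ASIV in BTBR Col1a2 fell (-0.63 ± 0.19) and Dcn rose (0.57 ± 0.18). Sums of the 4 were 3.59 to 7.53 FPKM in BTBR ASIV, 5.71 to 6.99 FPKM in BTBR vehicle and 3.698 to 5.36 FPKM in C57 vehicle. The 3 choroid plexus markers in the table summed to 2.39 to 10.6 FPKM in BTBR ASIV and 0.583 to 1.21 FPKM in C57 ASIV, and to 1.21 to 6.84 FPKM in BTBR vehicle and 0.623 to 1.63 FPKM in C57 vehicle; the 1 tested was not called. The 5 markers of perivascular macrophages summed to 1.36 to 3.57 FPKM in BTBR vehicle and 1.94 to 3.47 FPKM in C57 vehicle. The 6 neuronal markers summed to 695.3 to 811.6 FPKM in BTBR ASIV, 694.7 to 830.8 FPKM in BTBR vehicle and 909.7 to 1013 FPKM in C57 vehicle, with Snap25 called lower in BTBR vehicle than in C57 vehicle. Of lymphocyte markers, the table lists 1 of 8 for T cells (at 0.320 to 0.491 FPKM in BTBR vehicle and 0.238 to 0.498 FPKM in C57 vehicle), 0 of 5 for NK cells and 0 of 4 for B cells. The part of these markers in the class I differences was not tested.

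Across the 12 libraries, several heavy chain and loading genes followed each other, and B2m ran the other way. Pearson's r of log2(FPKM + 1) was 0.95 between H2-K1 and H2-D1, 0.93 between H2-D1 and H2-Q4 and 0.94 between Tap2 and Tapbp, against -0.72 between B2m and H2-D1 and -0.89 between B2m and Tap2. H2-T22 was close to none of the other heavy chains, with r of 0.03 to 0.27. Among 12152 protein-coding genes the patterns most like B2m were those of Stxbp4, Mpv17 and Srr (r = 0.98 each), those most like H2-D1 were Dusp28, Impdh2 and Prdx6 (0.963, 0.960 and 0.951), and those most like H2-K1 were H2-D1, Rhobtb3 and Cyp4f14 (0.951, 0.947 and 0.935). These values describe 12 libraries that fall into 4 groups and share the separation of BTBR vehicle.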

How the data were processed

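The authors deposited FPKM per gene and library, computed by the authors; the submitters' processing notes name HISAT2 2.0.5 and mm10. Counter, annotation, strand and filters: not given in the sources used here. Identifiers were matched to GENCODE M21 (17273 of 17283). Multiplied by exon length, 95.7 to 95.8% of values were whole fragments within 0.02, which gave the depth; H2-K1 and Tapbp were not whole in any library, so no fragments are printed for them.

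Values were analysed as log2(FPKM + 1) for the 13586 genes with at least 1 FPKM in 3 libraries, with 4 group means in limma 3.58.1 (R 4.3.3; robust eBayes with a mean trend, on 8 residual degrees of freedom) and Benjamini-Hochberg adjustment over all genes tested. The 5 comparisons were the strains under each treatment, ASIV in each strain and their interaction. All 10 genes passed the filter, H2-Q7 with 3 libraries and Tap1 with 5. All 10 are named; of each related list up to 4 genes with the smallest p are named, of the H2 region up to 3, and the 3 closest patterns by Pearson's r for B2m, H2-D1 and H2-K1. Values of Nlrc5, Fcgrt in BTBR ASIV and the marker sums were added after seeing the data. The members, lists and tests were chosen with earlier results of these data known. Libraries of a group differed by more than counting error, and not equally in each group. The chi-square per gene was 8.33 to 8.82 in C57 vehicle and 10.4 to 30.5 in C57 ASIV. It was 18.5 to 26.0 in BTBR ASIV and 25.5 to 47.9 in BTBR vehicle. The fit used a shared spread per gene, so standard errors for ASIV in BTBR also draw on the C57 libraries. The fit was also run on simulated data with an equal spread in all groups and few changed genes. These data differ from that setting, so no error rate for them is taken from it. Python 3.11.15, numpy 2.4.6, pandas 2.3.3 and matplotlib 3.10.9 were used. Promoter sequences are from RefSeq; 9 of 10 genes matched. Alternatives covered pseudocount, filter, scaling, model, a replicate block, voom and leaving out each library.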

Additional observations from a re-analysis of the deposited data

Results flagged for a closer look

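The interaction of strain and ASIV passed the test for B2m, at 1.43 on the log2 scale: B2m was 1.34 higher with ASIV in BTBR (3 of 3 treated libraries above all vehicle libraries) and stood at -0.09 in C57. It also passed for Tap2, at -0.488, with ASIV against vehicle at -0.57 in BTBR (3 of 3 treated libraries below all vehicle libraries) and -0.08 in C57. The adjusted p of Tap2, 0.0481 in limma, lay between 0.0291 and 0.114 over the alternatives and under the threshold in 3 of 21.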

How the results depend on the processing

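No called value of the 10 genes changed sign under the alternatives. Members called for the strains under vehicle numbered 8, for ASIV in BTBR 5, for the interaction 2, and 0 for the strains under ASIV and for ASIV in C57. The counts of 0 held in every alternative. With a filter of 5 FPKM, which leaves fewer members to test, 5 were called for the strains and 3 for ASIV in BTBR. Scaled without mitochondrial genes, 3 were called for ASIV in BTBR and 1 for the interaction; this moved the median of all genes by -0.11 for the strains under vehicle and 0.12 for ASIV in BTBR, and the called genes to 35.4% and 73.0% higher. The interaction also had 1 called with a pseudocount of 0.1, without a filter, with median-ratio scaling, with voom and with the replicate block, B2m in each; the cause was not tested. Over all genes, ASIV in BTBR had 1864 higher and 2090 lower, against 1111 higher and 1147 lower with only these groups in the fit. The strains under ASIV had 178 higher and 166 lower, and between 50 higher with 49 lower (without C57 ASIV replicate 2) and 353 higher with 291 lower (without BTBR vehicle replicate 2) when 1 library was left out; the interaction had 939 higher and 1000 lower, and 614 higher with 552 lower without C57 vehicle replicate 2. Leaving out 1 library gave 6 to 8 called for the strains under vehicle, 2 to 6 for ASIV in BTBR (2 without BTBR vehicle replicate 3, and 3 without BTBR vehicle replicate 1 or BTBR ASIV replicate 2) and 1 to 3 for the interaction, and 0 to 0 for the others.

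The labels do not say whether replicate numbers pair the libraries. Deviations of same-numbered libraries correlated at -0.17 to 0.28, and 8 of 18 pairs exceeded 0.1. The 36 other pairs correlated at -0.37 to 0.22, so the correlations do not settle whether the numbers pair libraries. With the replicate block 8 members were called for the strains under vehicle, 4 for ASIV in BTBR and 1 for the interaction. Among the 10 genes, depth limits H2-Q7, with 10 to 147 fragments, and Tap1, with 59 to 126.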

Other observations

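BTBR ASIV replicate 3 had the highest value of its group for B2m, H2-K1, H2-D1, H2-Q4, H2-Q7, Tap1, Tap2 and Tapbp (Tapbp by a margin within rounding), and the lowest for H2-T22 and H2-T23. H2-Q6, chosen after its values were seen, had 0.989, 1.32 and 5.86 FPKM in BTBR ASIV, against 3.34, 3.57 and 3.797 FPKM in BTBR vehicle; its log2 difference was -0.53 ± 0.37 (limma, adjusted p = 0.317).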
